A study of Mus musculus with 13 samples.

Results

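The 10 genes described here are the transcription factor Foxp3 and 9 genes widely used as identity genes of regulatory T cells: Ikzf2, Ikzf4, Il2ra, Lrrc32, Nrp1, Izumo1r, Gpr83, Capg and Swap70. They were taken from a list of gene names that was chosen with earlier results of these data known. All 10 were found among the 24313 named genes of the RNA-seq table. Each gene was followed through RNA-seq, ATAC-seq and TCF1 ChIP-seq of mouse regulatory T cells of 2 genotypes. WT cells carried Foxp3Cre-YFP alone, an allele that expresses Cre recombinase and a yellow fluorescent protein from the Foxp3 locus. CAT cells carried the same allele together with Ctnnb1flex3, in which Cre removes exon 3 of the beta-catenin gene, the part through which the protein is marked for degradation. Both genotypes were male C57BL/6 mice, 21 days old for RNA-seq and ATAC-seq. There were 3 WT and 3 CAT RNA libraries and 3 WT and 2 CAT ATAC libraries, with lymph nodes given as the source for ATAC-seq, and 1 TCF1 ChIP library came from lymph nodes and spleens of WT mice aged 10 to 12 weeks. Sorting took cells positive for both YFP and CD25, so that Foxp3, which drives the YFP, and Il2ra, which encodes CD25, were part of the gate in both genotypes and their levels are those of cells inside it. Cre acts in cells that express Foxp3, and all comparisons are between cells that carry it. The labels do not say whether the libraries of a genotype came from separate animals, and the spread that p-values rest on is that between these samples and may be technical.

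Regulatory T cells are CD4 T cells that restrain immune responses. Foxp3 holds their programme in place together with partner factors, among them the Ikaros family members Helios (Ikzf2) and Eos (Ikzf4). The cells depend on interleukin 2, which they take up through CD25, and they display receptors that are sparse on other resting T cells. Beta-catenin, when it escapes degradation, enters the nucleus and works with TCF1 and LEF1, DNA-binding proteins of T cells. The comparison of CAT with WT sets regulatory T cells from mice with the Ctnnb1flex3 allele beside those from mice without it. The 10 genes show how identity genes of these cells stood. Whether a difference arises within the cells was not tested.

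The RNA libraries held 24124086 to 31527245 fragments in named genes. Beta-catenin itself (Ctnnb1) was at 478 ± 21.7 CPM, a fragment count scaled to the library's size (SD, n = 3), in WT and 446 ± 41.1 in CAT, a log2 change of -0.10 ± 0.09 (SE) with an adjusted p of 0.388 in edgeR's quasi-likelihood test, and a gene total does not show the loss of 1 exon. WT replicates 1 and 3 had fragments in 19640 and 19736 genes and the other 4 libraries in 15747 to 16051. The FPKM value per fragment, which depends on the lengths and scaling used in the authors' software, set replicate 1 of both genotypes apart from the other 4 libraries: the SD of its log2 difference over genes was 0.068 between the replicate 1 libraries, 0.016 to 0.029 among the other 4, and 0.23 to 0.277 between the sets. The summed CPM of 5 regulatory T cell markers, 3 of them among the 10 genes, was 3000 to 3160 in WT and 5220 to 6590 in CAT. Markers of CD8 T cells and NK cells stood lower, at 17.7 to 23.4 summed CPM over 6 markers in WT and 54.5 to 64.4 in CAT. Of these, 4 were tested: Cd8a, Cd8b1 and Nkg7 rose, by 1.89, 1.53 and 1.64 on the log2 scale, and the other tested marker did not pass. The 6 general T cell markers summed to 2790 to 2900 CPM in WT and 2350 to 2760 in CAT, and 2 of them fell. B cell markers summed to 21.1 to 26.8 CPM in WT and 11.4 to 18.6 in CAT, with 1 of 3 tested markers lower. Myeloid markers summed to 10.4 to 16.1 CPM in WT and 4.75 to 7.86 in CAT, with 3 of 4 tested markers lower and 1 higher. Erythroid markers summed to 0.927 to 1.24 CPM in WT and 2.05 to 2.54 in CAT, the 1 tested marker not passing, and no marker of these lists was at 0 in all libraries. These marker counts stand beside 25.5% of all tested genes that rose and 23.5% that fell. The part of other cells in the results was not tested.

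Of the 10 genes, 6 rose in CAT, 2 fell and 2 did not pass an adjusted p of 0.05 (edgeR quasi-likelihood test, Benjamini-Hochberg adjustment over 13193 tested genes). Foxp3, Il2ra, Lrrc32, Izumo1r, Gpr83 and Capg rose, Ikzf4 and Nrp1 fell, and Ikzf2 and Swap70 did not pass. Among all tested genes 25.5% rose and 23.5% fell, so that 49.0% changed in either direction. The median log2 change was 0.655 over the 10 genes and 0.001 over all tested genes. In 7 of the 10 genes every CAT library was above every WT library, which held for 30.1% of tested genes, and in 2 every CAT library was below, which held for 29.1%. Since the genes were chosen with earlier results of these data known, these counts and medians describe them and are not a test. In bulk samples fewer cells of a type and less RNA per cell cannot be told apart.

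**Figure D1:**
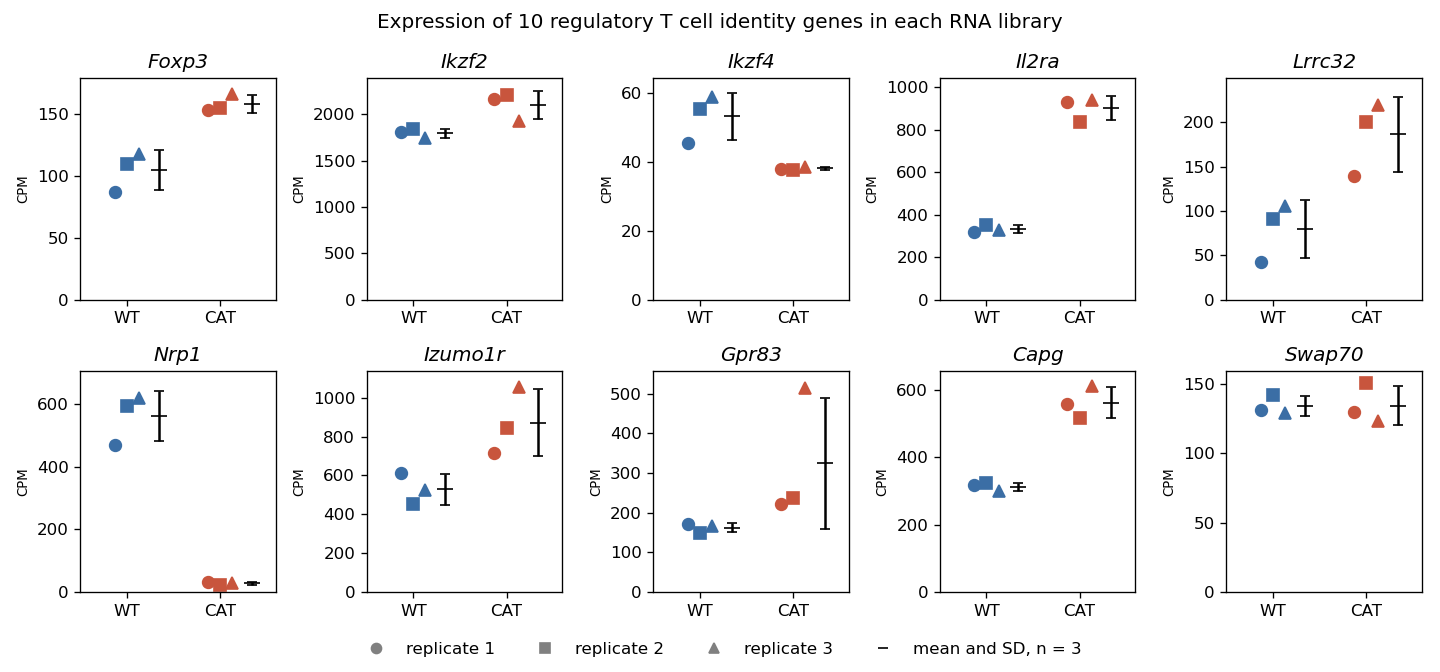
Expression of the 10 genes in each RNA library, as CPM on linear axes that start at 0, with 3 WT (blue) and 3 CAT (red) libraries per gene; circles, squares and triangles are replicates 1 to 3, and black bars are the mean and SD of a genotype. Nrp1 lies at 469 to 620 CPM in WT and at 23.1 to 32.3 in CAT, and the genotypes overlap in Swap70.

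Chromatin at each gene was read from the authors' lists of ATAC peaks, over the gene as annotated by RefSeq and 5 kb on either side. Peaks of the 5 lists that overlapped by at least 1 bp were merged into regions. A region is called common where all 5 lists had a peak, lost where every WT list and no CAT list had one, gained in the reverse case, and mixed otherwise. The CAT lists were shorter than the WT lists, with 27129 and 29548 peaks against 33204 to 41197, and their median peak was narrower, at 254 bp in both against 384 to 399 bp. These lists mark presence or absence of a called peak, and their scores were not compared.

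Foxp3 is the forkhead factor that defines the lineage. It measured 86.8, 110.0 and 118 CPM in the WT libraries and 153, 155 and 166 CPM in the CAT libraries. All CAT libraries were above all WT libraries, and WT replicate 1 was the lowest of the 6. The rise was 1.51-fold, or 0.59 ± 0.11 (SE) on the log2 scale, with an adjusted p of 0.00221, from 8913 fragments in WT and 12423 in CAT. It was 0.82 between the replicate 1 libraries and 0.50 between the others. In the authors' deposited table Foxp3 was at 28.1 FPKM in WT and 43.1 in CAT with a q-value of 0.000948. The annotated span of Foxp3, chrX:7579676-7595243 of GRCm38.p6, overlaps the genes Flicr and Ccdc22, and its estimated fragments were not all whole numbers, so that its count may include a share assigned between genes.

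Chromatin at Foxp3 comprised 3 regions. A common region, chrX:7573972-7575031, lay upstream of the gene, with 685 to 985 bp of peak in the 5 libraries. A lost region, chrX:7583899-7584297, lay inside the gene, centred 4.4 kb from its start. Its peaks covered 367, 328 and 281 bp in the WT libraries and no peak was called there in either CAT library. The TCF1 peak of the locus, chrX:7583816-7583957, overlapped the left edge of this region, where the peak of WT replicate 1 reached it and those of WT replicates 2 and 3 did not. In CAT replicate 2 alone a peak was called further in, at chrX:7586502-7586687. RefSeq gives Foxp3 a pair of promoter windows, each of 250 bases before and 50 after an annotated start, and no ATAC or TCF1 peak of any library overlapped either. The first, chrX:7579426-7579725 on the plus strand, is shown because it holds the only match among the members' windows to the TCF/LEF words searched, CTTTGAT and CTTTGTT on both strands. Its capitals mark AACAAAG, which is CTTTGTT on the other strand.
Foxp3 promoter window: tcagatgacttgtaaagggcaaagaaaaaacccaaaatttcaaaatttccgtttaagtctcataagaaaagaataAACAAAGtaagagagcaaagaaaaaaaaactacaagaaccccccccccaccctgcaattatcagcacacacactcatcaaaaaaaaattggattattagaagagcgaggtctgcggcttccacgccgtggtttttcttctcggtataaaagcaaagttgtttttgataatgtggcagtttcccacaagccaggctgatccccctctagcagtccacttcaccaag
CTTTGTT was found in 5.85% of 32851 RefSeq promoter windows and CTTTGAT in 3.73%. A match is a description of the sequence and does not show binding.

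Ikzf2 encodes Helios, a zinc finger factor of the Ikaros family that is high in regulatory T cells. It measured 1803, 1837 and 1741 CPM in WT and 2163, 2205 and 1931 CPM in CAT. The genotypes did not overlap, but the change of 0.23 ± 0.09 on the log2 scale had an adjusted p of 0.0610 and did not pass. Ikzf2 had more regions than any other of the 10 genes, 21 over a span of 156145 bp. Of these 3 were common, 7 lost and 11 mixed. Peaks of the locus covered 5995, 5936 and 4322 bp in WT and 899 and 1379 bp in CAT. The widest lost region, chr1:69637999-69638883, had 813, 674 and 682 bp of peak in WT. TCF1 had 5 peaks at Ikzf2: 2 lay in common regions, 2 in mixed regions and 1 shared 1 bp with a lost region, chr1:69537740-69538085. One of the common regions with a TCF1 peak, chr1:69687095-69687903 at the upper end of the gene span, had 755, 767 and 809 bp of peak in WT and 563 and 728 bp in CAT.

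Ikzf4 encodes Eos, an Ikaros family factor known in mouse cells as a partner of Foxp3 in gene silencing. It measured 45.6, 55.4 and 58.7 CPM in WT and 38.1, 37.7 and 38.6 CPM in CAT. Every CAT library was below every WT library, and the CAT libraries lay close together at 38.1 ± 0.487 CPM (SD, n = 3). The fall was -0.48 ± 0.10 on the log2 scale with an adjusted p of 0.00413. Of the transcription factors among the 10 genes Ikzf4 fell and Foxp3 rose. Its ratio to Foxp3 in FPKM was 0.545, 0.533 and 0.526 in WT and 0.254, 0.257 and 0.245 in CAT, a difference of -1.08 on the log2 scale. An exact permutation test of 3 against 3 libraries gave p = 0.1, two-sided, the smallest that design allows. Each of the 4 regions at Ikzf4 held a TCF1 peak. Of these 3 were common, 2 of them in the 5 kb flanks, where Rps26 and Suox are also annotated. The fourth, chr10:128645589-128646630, was lost, with 1017, 842 and 468 bp of peak in WT. It lay inside the RefSeq span and over the upper end, chr10:128645993, of the span that the authors deposited. The TCF1 peak in it, chr10:128646111-128646252, overlapped peaks of WT replicates 1 and 2 and not that of WT replicate 3.

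Il2ra encodes CD25, the alpha chain that gives the interleukin 2 receptor its high affinity, and was a gating marker here. It measured 317, 353 and 327 CPM in WT and 928, 835 and 941 CPM in CAT. The lowest CAT library was far above the highest WT library. Its rise of 1.44 ± 0.088 on the log2 scale had the largest size among the 6 genes that rose, with an adjusted p of 3.36e-06, and was 1.55 between the replicate 1 libraries and 1.38 between the others. Relative to Foxp3 in FPKM it went from 2.53 ± 0.187 (SD, n = 3) in WT to 4.51 ± 0.282 in CAT, with no overlap. Il2ra kept peaks in all 5 libraries at 4 of its 8 regions, the other 4 being mixed, and had no lost region. Its only TCF1 peak, chr2:11653441-11653582, lay in the common region chr2:11653334-11653752, whose peaks covered 289, 419 and 334 bp in WT and 231 and 301 bp in CAT. The region over the annotated start, chr2:11642315-11642969, narrowed: its peaks covered 655, 393 and 511 bp in WT and 132 and 175 bp in CAT. The promoter window within it, chr2:11642542-11642841 on the plus strand, is shown with the bases covered by a peak of either CAT library in capitals. The peak of CAT replicate 1 covered 132 of its bases and that of CAT replicate 2 covered 175. The WT peaks covered 298 to 300 of its 300 bases.
Il2ra promoter window: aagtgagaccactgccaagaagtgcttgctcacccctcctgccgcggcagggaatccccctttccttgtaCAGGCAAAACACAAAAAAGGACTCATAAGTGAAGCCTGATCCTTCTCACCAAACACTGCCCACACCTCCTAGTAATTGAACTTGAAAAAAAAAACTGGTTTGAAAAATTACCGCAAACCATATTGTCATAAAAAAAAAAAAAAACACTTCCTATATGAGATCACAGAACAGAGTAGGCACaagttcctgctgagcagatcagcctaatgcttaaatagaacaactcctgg
Neither TCF/LEF word, nor the forkhead word GTAAACA, was found in it on either strand.

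Lrrc32 encodes GARP, which holds latent TGF-beta on the surface of regulatory T cells. It measured 42.5, 90.5 and 106 CPM in WT and 139, 199.7 and 219.8 CPM in CAT. The genotypes did not overlap, and replicate 1 was the lowest of each genotype. The change of 1.23 ± 0.29 on the log2 scale had an adjusted p of 0.00717; it was 1.71 between the replicate 1 libraries and 1.09 between the others. Lrrc32 was also the gene with no ATAC peak in either CAT library. Its 3 regions, chr7:98488445-98489298, chr7:98489782-98489990 and chr7:98491732-98492071, were all lost. Peaks of the locus covered 1338, 791 and 805 bp in WT and 0 bp in both CAT libraries. The TCF1 peak chr7:98489898-98490039 overlapped the second of these regions and a peak of each WT library. RNA and called peaks thus stood in opposite directions at Lrrc32. The covered length was also lower in CAT at each of the other genes that rose, and the whole CAT lists covered less sequence than the WT lists.

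Nrp1 encodes neuropilin-1, a receptor for semaphorins and a coreceptor for VEGF that is high on regulatory T cells of thymic origin in mice. It measured 469, 595 and 620 CPM in WT and 32.3, 23.1 and 28.3 CPM in CAT. WT replicate 1 was the lowest WT library, and the highest CAT library was far below it. The fall of -4.33 ± 0.16 on the log2 scale had an adjusted p of 2.08e-07 and ranked 44 from the largest fall among 13193 genes. Within the replicate 1 libraries it was -3.86 and within the others -4.56. Of the 12 regions at Nrp1, 4 were common, 3 lost and 5 mixed. The region over its annotated start, chr8:128357847-128359760, had 1539, 1834 and 1854 bp of peak in WT, 178 bp in CAT replicate 1 and none in CAT replicate 2. Its TCF1 peak, chr8:128391191-128391332, lay in a common region inside the gene, where peaks covered 339, 706 and 521 bp in WT and 266 and 345 bp in CAT. The promoter window chr8:128358823-128359122, on the plus strand, was covered over 256, 300 and 300 bases in WT and over none in CAT. It is shown with the 50 bases from the annotated start in capitals.
Nrp1 promoter window: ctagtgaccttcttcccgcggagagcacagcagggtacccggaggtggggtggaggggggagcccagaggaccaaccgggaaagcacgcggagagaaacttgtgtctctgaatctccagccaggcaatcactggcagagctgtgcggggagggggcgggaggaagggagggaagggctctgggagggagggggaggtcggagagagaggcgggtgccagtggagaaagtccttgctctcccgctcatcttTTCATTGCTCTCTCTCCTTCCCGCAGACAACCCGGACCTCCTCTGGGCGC

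Izumo1r and Gpr83 are neighbours on chromosome 9, with 15024 bp between the end of Gpr83 and the start of the annotated span of Izumo1r. Izumo1r encodes folate receptor 4, a surface marker of regulatory T cells that is also the egg receptor for sperm. It measured 612, 452 and 526 CPM in WT and 714, 846 and 1055 CPM in CAT. The genotypes did not overlap, and the spread within each was wider than in Il2ra or Capg. The change was 0.72 ± 0.15 on the log2 scale with an adjusted p of 0.00413; it was 0.22 between the replicate 1 libraries and 0.96 between the others. Gpr83 encodes a G protein-coupled receptor enriched in regulatory T cells. It measured 170.2, 149 and 168 CPM in WT and 221, 237 and 514 CPM in CAT. CAT replicate 3 stood far above the other CAT libraries, which were themselves above all WT libraries. The change of 1.00 ± 0.28 on the log2 scale had an adjusted p of 0.0149. Without CAT replicate 3 it was 0.50 with an adjusted p of 0.00111. Without WT replicate 2 it was 0.94 and did not pass (adjusted p = 0.0627), nor did it in limma on log2(FPKM + 1), at 0.90 with an adjusted p of 0.0521. Izumo1r did not pass in limma after quantile normalisation, at 0.48 with an adjusted p of 0.109.

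Neither of the neighbours held a TCF1 peak. At Izumo1r the region over the annotated start, chr9:14902427-14904282, had 1842, 1179 and 1070 bp of peak in WT, 491 bp in CAT replicate 1 and none in CAT replicate 2. A region beyond the other end of the gene, chr9:14884626-14885335, showed the reverse pattern between the CAT libraries, with 146 bp in replicate 2 and none in replicate 1. The promoter window of Izumo1r was covered over all 300 bases in the 3 WT libraries, over 265 in CAT replicate 1 and over none in CAT replicate 2. At Gpr83 the region over the annotated start, chr9:14859941-14860564, was lost, with 608, 604 and 619 bp in the WT libraries. The promoter window of Gpr83, chr9:14859960-14860259 on the plus strand, was covered over all 300 bases in each WT library and over none in CAT, as at Nrp1, although Gpr83 RNA rose and Nrp1 RNA fell. It is shown with the 50 bases from the annotated start in capitals.
Gpr83 promoter window: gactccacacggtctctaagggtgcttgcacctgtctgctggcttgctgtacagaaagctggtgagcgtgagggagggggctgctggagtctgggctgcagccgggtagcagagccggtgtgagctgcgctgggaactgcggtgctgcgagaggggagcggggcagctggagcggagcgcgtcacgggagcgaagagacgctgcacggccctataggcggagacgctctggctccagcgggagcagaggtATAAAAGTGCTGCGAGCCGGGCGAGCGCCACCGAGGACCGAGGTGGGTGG

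Capg encodes a gelsolin family protein that caps the ends of actin filaments. It measured 317, 323 and 299.5 CPM in WT and 558, 518 and 611 CPM in CAT. The genotypes were well apart and the replicates close. The change was 0.84 ± 0.087 on the log2 scale with an adjusted p of 6.23e-05, and 0.82 and 0.86 within the replicate 1 libraries and the others. Capg had the most common regions of the 10 genes, 5 of 7, with 1 lost and 1 mixed. Peaks of the locus covered 3339, 2911 and 3002 bp in WT and 1474 and 1785 bp in CAT. It held no TCF1 peak, and no library had an ATAC peak over its 1 RefSeq promoter window, chr6:72549397-72549696. That window lay inside the gene span, and other starts may be used. The span that the authors deposited begins at chr6:72544390, within the common region chr6:72544108-72545043. Peaks of that region covered 821, 805 and 936 bp in WT and 246 and 582 bp in CAT.

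Swap70 encodes an actin-binding protein that acts downstream of phosphoinositide 3-kinase. It measured 131, 142 and 129 CPM in WT and 129.6, 150.4 and 122.9 CPM in CAT. The genotypes overlapped in full, and the change of 0.00 ± 0.094 on the log2 scale had an adjusted p of 0.987. Chromatin at Swap70 nonetheless differed in the lists: of 11 regions 2 were common, 3 lost, 1 gained and 5 mixed. The gained region, chr7:110270566-110270771, was the only one among the 10 genes, with 167 and 197 bp of peak in CAT. A lost region, chr7:110237373-110238004, held a TCF1 peak and had 616, 482 and 382 bp of peak in WT. The start of Swap70 stayed in a peak in every library: the region chr7:110221132-110222294 had 1128, 1026 and 1151 bp in WT and 724 and 961 bp in CAT. It held the TCF1 peak chr7:110221664-110221805. The promoter window chr7:110221453-110221752, on the plus strand, was the only member window that a TCF1 peak reached, and it is shown with the 89 bases inside that peak in capitals.
Swap70 promoter window: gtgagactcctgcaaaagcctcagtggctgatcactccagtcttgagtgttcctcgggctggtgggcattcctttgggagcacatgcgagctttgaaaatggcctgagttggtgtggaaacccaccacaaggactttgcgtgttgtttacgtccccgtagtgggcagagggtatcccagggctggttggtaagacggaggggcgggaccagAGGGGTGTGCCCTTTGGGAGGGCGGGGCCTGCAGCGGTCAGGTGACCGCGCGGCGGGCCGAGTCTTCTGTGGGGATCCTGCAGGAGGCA
Windows that a TCF1 peak reached made up 8.75% of all promoter windows. The Swap70 window also holds tgtttac, the forkhead word GTAAACA on the other strand, which was found in 3.65% of all windows.

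**Figure D2:**
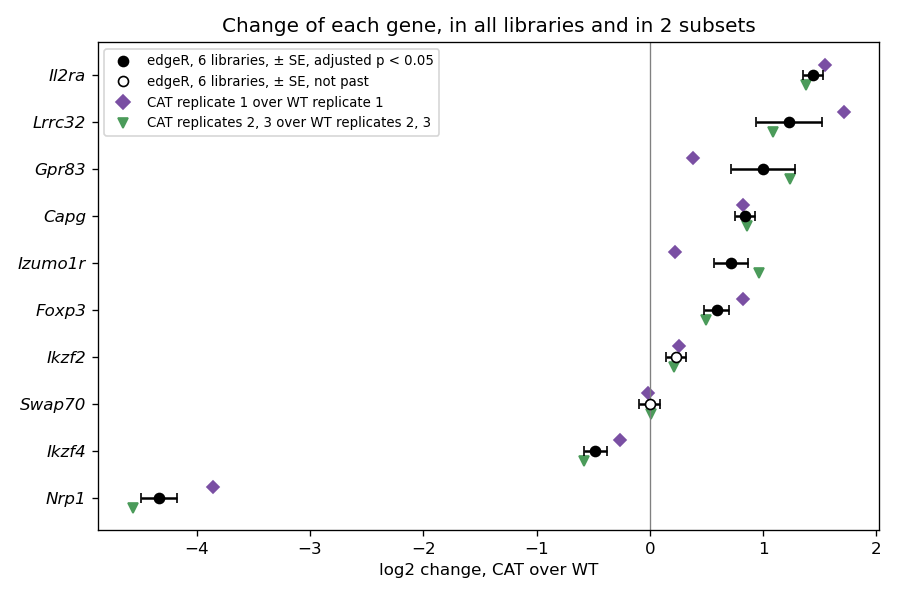
Log2 change in CAT over WT of the 10 genes, ordered by size: black points are edgeR estimates over 6 libraries with their SE (filled where the adjusted p was under 0.05), purple diamonds the difference between the replicate 1 libraries and green triangles that between the means of replicates 2 and 3. The diamond and the triangle lie on the same side of 0 for every gene except Swap70, at -0.02 and 0.01, and are furthest apart for Gpr83, at 0.38 and 1.24.

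Levels can be compared between the genes only per transcript length, for which FPKM was used. In WT the order was Izumo1r (mean 482 FPKM), Capg (307), Ikzf2 (169), Nrp1 (89.7), Gpr83 (76.3), Il2ra (70.95), Swap70 (33.7), Foxp3 (28.1), Lrrc32 (21.4) and Ikzf4 (15.01). The ranges of neighbours in that order overlapped between Nrp1 and Gpr83, between Gpr83 and Il2ra, between Foxp3 and Lrrc32 and between Lrrc32 and Ikzf4. In CAT the top 3 were again Izumo1r (783), Capg (538) and Ikzf2 (201.5), followed by Il2ra (194), Gpr83 (153), Lrrc32 (50.5), Foxp3 (43.1), Swap70 (33.5), Ikzf4 (10.9) and Nrp1 (4.48). Ranges of neighbours overlapped from Ikzf2 to Il2ra and from Il2ra to Gpr83, and between Lrrc32 and Foxp3. Nrp1 went from the fourth place to the last. In WT 7 of the 10 genes had a mean level above that of Foxp3, and in CAT 6 had.

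**Figure D3:**
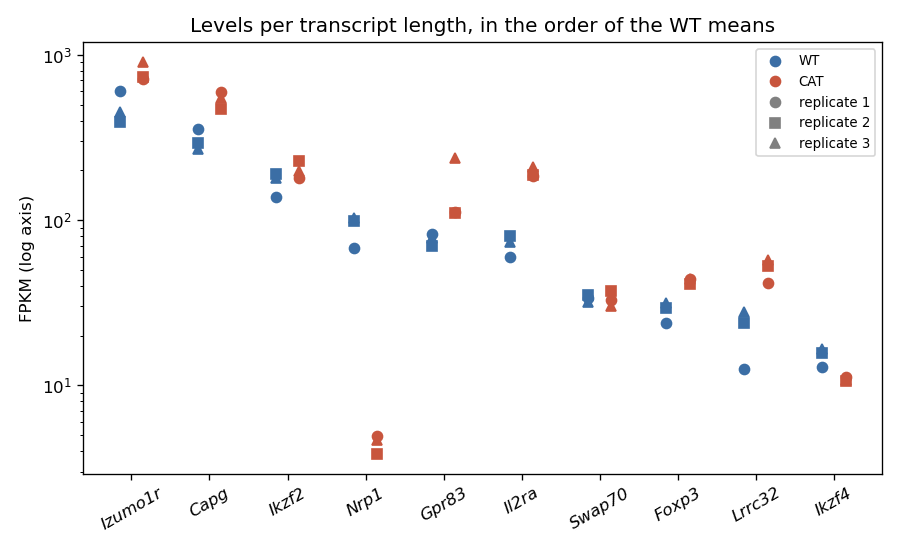
Level of each gene per transcript length, as FPKM on a log axis, in 3 WT (blue) and 3 CAT (red) libraries, with the genes in the order of their WT means. Izumo1r is highest in both genotypes, and Nrp1 drops from a mean of 89.7 FPKM in WT to 4.48 in CAT, below Ikzf4.

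To see which genes kept their proportion to Foxp3, the FPKM of the other 9 genes was divided by that of Foxp3 in the same library and compared between genotypes by 9 exact permutation tests, two-sided and not adjusted. Izumo1r, Gpr83 and Capg overlapped between the genotypes, with log2 differences of 0.09, 0.29 and 0.19 and exact p-values of 0.9, 0.5 and 0.5. With 3 libraries a genotype, these values do not show that the proportions were equal. In the other 6 genes the genotypes did not overlap and p was 0.1, the smallest possible. Il2ra and Lrrc32 were higher relative to Foxp3 in CAT, by 0.84 and 0.68. Ikzf2, Swap70, Ikzf4 and Nrp1 were lower, by log2 differences of -0.36, -0.64, -1.08 and -4.93. Foxp3 itself rose by 0.59, so a gene with no change of its own falls relative to it. Swap70, at 0.00, was such a gene, and Ikzf2, at 0.23, did not pass by itself. The share of all genes whose ratio to Foxp3 does not overlap between the genotypes was not counted. The ratio of Nrp1 to Foxp3 was 2.84, 3.38 and 3.28 in WT and 0.112, 0.0930 and 0.106 in CAT.

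The chromatin of the 10 genes can be set beside that of the whole genome. The loci held 69, 59 and 58 peaks in the WT lists and 28 and 34 in the CAT lists. These were 0.169% ± 0.00529 (SD, n = 3) of all listed peaks in WT and 0.109% ± 0.00849 (n = 2) in CAT, so that the loci had a smaller share of the shorter lists too. Peaks at the loci covered 30452, 27367 and 24900 bp in WT and 8056 and 10165 bp in CAT, or 0.142% ± 0.00252 and 0.0985% ± 0.0105 of the length in peaks. An exact permutation test of 3 against 2 libraries, two-sided, gave p = 0.1 for each of these 4 quantities, the smallest that 10 splits allow, and p = 0.2 for the number of peaks in the whole list. At every one of the 10 genes each CAT library had less sequence in peaks than each WT library. The whole lists differed in the same way, covering 8843100 and 9591754 bp in CAT and 17208803 to 21754067 bp in WT. How many of all genes do the same was not counted, so whether this is particular to the 10 genes is not known. How far the narrower peaks and shorter lists of CAT account for the shorter covered length was not tested.

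**Figure D4:**
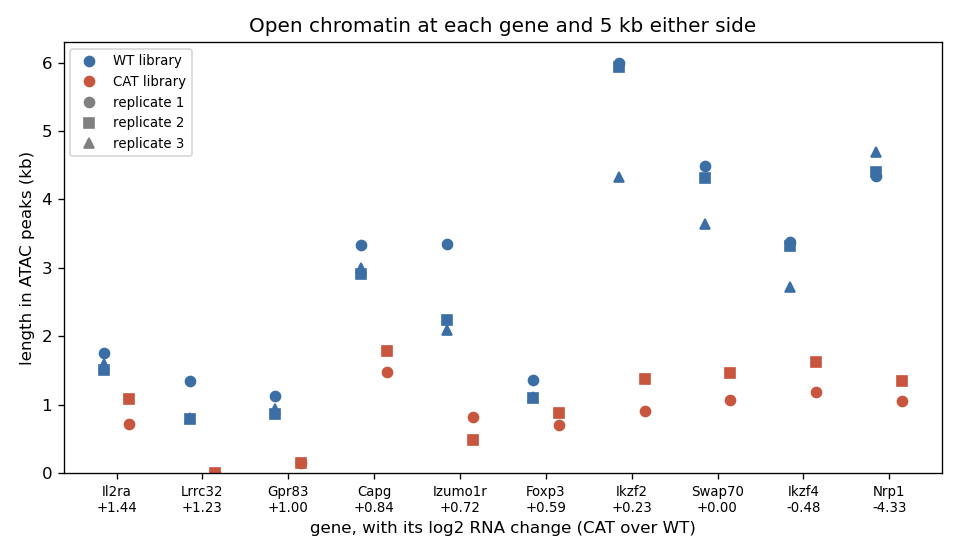
Length of ATAC peaks, in kb, over each gene and 5 kb on either side, in 3 WT (blue) and 2 CAT (red) libraries, with the genes in the order of their RNA change, which is printed under each name. All CAT points lie below all WT points of the same gene, and both CAT points of Lrrc32 are at 0. The whole CAT lists also covered less sequence than the WT lists.

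Merging gave 76 regions at the 10 genes, 62 of them inside a gene span. Of these 24 (31.6%) were common, 20 (26.3%) lost, 1 (1.32%) gained and 31 (40.8%) mixed. Among all 49014 regions 40.4% were common, 12.4% lost, 3.94% gained and 43.3% mixed. Regions of a gene are not independent of each other, and 7 of the 20 lost regions were at Ikzf2; 8 of the 10 genes had at least 1, the exceptions being Il2ra and Izumo1r. Each list was also kept to its widest peaks, down to the length of the shortest list. At the 10 genes 18 regions were then common, 12 lost and 4 gained. In the whole genome 43.4% were common, 7.06% lost and 7.06% gained. The total with mixed regions at the 10 genes is not given for this setting. These counts therefore do not give the share of lost regions among all regions there. Relative to common regions, lost regions were still more frequent at the 10 genes than in the whole genome. TCF1 peaks lay in 15 of the 76 regions (19.7%), against 10.6% of all regions, and at 7 of the 10 genes. Of these 15 regions 8 were common, 5 lost and 2 mixed. Among all 5192 regions with a TCF1 peak 90.2% were common, 2.77% lost and 0.135% gained. The 5 lost regions with a TCF1 peak were the ones described at Foxp3, Ikzf2, Ikzf4, Lrrc32 and Swap70. There the TCF1 peak itself met a called peak of 3 WT libraries at Lrrc32 and Swap70, of 2 at Ikzf4, and of only 1 at Foxp3 and at Ikzf2. TCF1 was measured in WT cells only, in 1 library of older mice, so its presence at these sites in CAT was not measured.

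**Figure D5:**
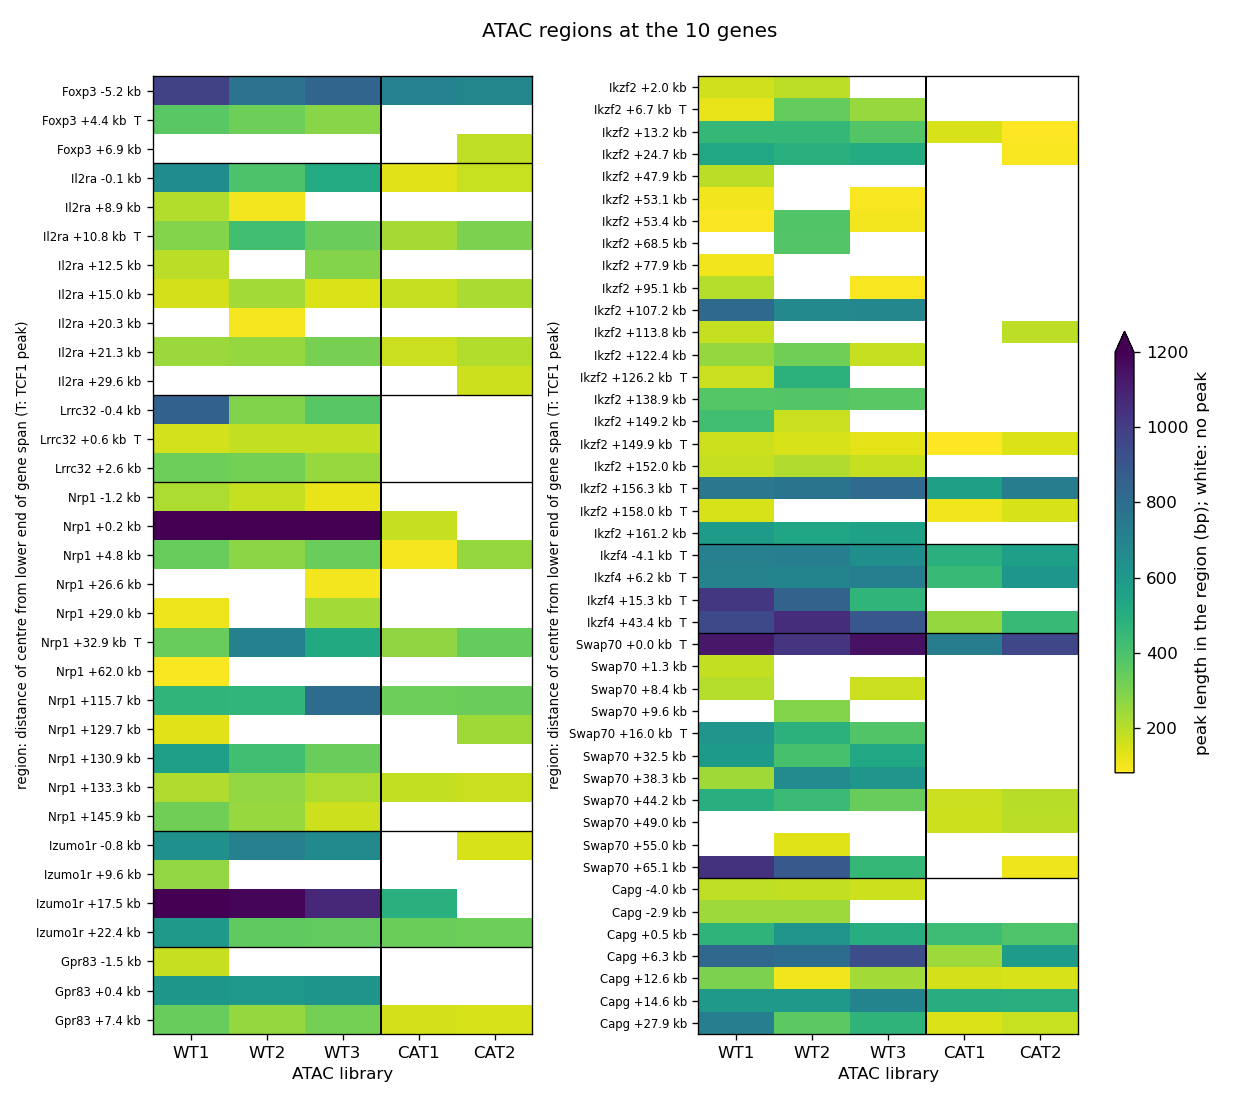
The 76 ATAC regions at the 10 genes, 1 per row, named by the distance in kb of the centre from the lower end of the gene span, with T where the region holds a TCF1 peak; colour is the length in called peaks (bp) in each of 5 libraries, values beyond the top of the scale share the darkest colour, and white is no peak. The 20 lost regions are coloured in the 3 WT columns and white in both CAT columns, as in all 3 rows of Lrrc32.

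Over the 8 promoter windows that RefSeq gives for 7 of the 10 genes (Il2ra, Capg, Swap70, Nrp1, Gpr83, Izumo1r and a pair for Foxp3), 2 were in a peak in all 5 libraries, at Il2ra and Swap70. Another 2 were in a peak in every WT and no CAT library, at Nrp1 and Gpr83. Of 32851 windows in all, 31.0% were of the first kind and 2.46% of the second. The Izumo1r window was covered in 4 of the 5 libraries. The Capg window, which lies inside the gene span, and both Foxp3 windows were covered in none.

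Of other genes that act with Foxp3, 34 regulators and partners were all tested: 12 rose, 7 fell and 15 did not pass, with a median log2 change of -0.04. These counts stand beside 25.5% of all tested genes that rose and 23.5% that fell, so that the list is near the background. Uhrf1, which brings DNA methylation to newly copied DNA, rose from 23.8 ± 1.73 to 81.7 ± 2.04 CPM (SD, n = 3). Runx3, a Runt factor that can bind Foxp3, rose by 1.28 ± 0.12 (SE) on the log2 scale, and Gata3, a factor of type 2 helper cells that regulatory T cells also use, by 1.07 ± 0.14. Bach2, a repressor that holds effector programmes down, fell from 66.8 ± 7.004 to 23.0 ± 10.8 CPM. In the Ikaros family outside the 10 genes, 2 of 3 genes rose: Ikzf3 (Aiolos) from 162 ± 8.98 to 802 ± 58.2 CPM, a log2 change of 2.31 ± 0.092, and Ikzf1 by 0.26 ± 0.089 with an adjusted p of 0.0339. Ikzf5, at -0.19, did not pass. Within 1 family, then, Ikzf3 and Ikzf1 rose, Ikzf4 fell, and Ikzf2 and Ikzf5 did not pass. The call of Ikzf1 was lost in most alternative fits, where the number of family members that rose was 1.

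Among 30 other genes known to be high in regulatory T cells, 25 rose, 4 fell and 1 did not pass, with a median log2 change of 1.44, beside 25.5% of all tested genes that rose and a median of 0.001. This list, like the others, was chosen with earlier results of these data known, so its count is a description and not a test. The interleukin gene Il10 rose from 9.42 ± 1.14 to 139 ± 35.6 CPM, the lectin-like receptor Klrg1 by 3.87 ± 0.31 on the log2 scale, and Prdm1, which encodes the factor Blimp-1, by 3.30 ± 0.099. The genes that fell were Gbp2b, Itgb8, Nt5e and Cd83, of which Gbp2b changed most, from 82.1 ± 10.3 to 6.03 ± 0.507 CPM. Among 15 genes listed as low in regulatory T cells 14 were tested: 4 rose, 7 fell and 3 did not pass, with a median of -0.34, beside 25.5% and 23.5% of all tested genes. Not all were low here: Id3 and Il7r were at 90.6 ± 9.37 and 74.2 ± 2.82 FPKM in WT, above Foxp3 at 28.1 ± 3.96. Il7r, the receptor for interleukin 7, rose from 254 ± 25.9 to 1440 ± 277 CPM and Id2 by 2.14 ± 0.14 on the log2 scale, while Id3 and Ramp1 fell, with log2 changes of -4.51 and -2.89. Il2 was not tested at its low counts. Of 12 helper cell cytokines and regulators only 7 were tested, beside 25.5% of all tested genes that rose and 23.5% that fell. Il13, Il4 and Tbx21 rose, Bcl6 fell, and Ifng and Il21 did not pass. Il13 and Il4 were near the floor, at 0.0596 ± 0.0774 and 0.653 ± 0.426 CPM in WT and 1.42 ± 0.839 and 4.07 ± 1.28 CPM in CAT. Il13 had 5 fragments in WT and 113 in CAT.

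Genes whose FPKM followed a member most closely over the 6 libraries were taken from 7567 genes by the root mean square difference of log2(FPKM + 1) after centring. For Foxp3 these were Plagl2 (0.047), Etv6 (0.053) and Dapp1 (0.055). Dapp1 stood at 25.4, 30.2 and 30.5 FPKM in WT and 44.8, 44.1 and 43.0 in CAT, beside 23.7, 29.4 and 31.3 and 44.0, 41.2 and 44.2 for Foxp3. For Il2ra they were Gm2a (0.083), Chd7 (0.087) and Ppm1l (0.106). The fall of Nrp1 was followed less closely, by Gsta4 (0.313), Id3 (0.350) and St8sia6 (0.374). Id3 stood at 101, 87.2 and 83.4 FPKM in WT and 4.06, 2.41 and 5.18 in CAT. With 6 libraries in 2 genotypes, likeness of this kind is set largely by the size of the change between the genotypes.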

How the data were processed

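Files were used as deposited. Bowtie, HOMER, MACS2 and mm10 come from the submitters' processing notes. Other upstream settings were not stated in what was used here. Per the file headers, the authors deposited Cuffdiff estimated counts of fragments, FPKM, and a comparison table with p-values and q-values, and ATAC peak lists with MACS2 pileup signal, fold enrichment ratio and −log10 p and q. RNA replicates 1 to 3 are those that the deposited table numbers 0 to 2, matched in that order as names. Estimated counts (92.519% whole) were rounded. Left out were 13 genes with failed estimates and no fragments, and 25 date-like identifiers (0.2653 to 0.2813% of fragments). edgeR 4.0.16 in R 4.3.3 (TMM factors 0.978 to 1.03, quasi-likelihood test, common biological coefficient of variation 0.132, checked on simulated data) tested 13193 genes past its low-count filter. limma 3.58.1 and DESeq2 1.42.0 were alternatives. TCF1 peaks, each 142 bp wide, were converted to 1-based coordinates. ATAC scores were not compared, since peak width hardly followed the pileup, with a Spearman coefficient of only 0.0381 to 0.0547. Genes, promoter windows and sequences are from RefSeq, GRCm38.p6, and exons and introns are not given. Members and lists were chosen with earlier results of these data known. Other genes were named by rule: up to 4 per list with the largest change past the threshold and a mean FPKM of at least 1, and the 3 most like Foxp3, Il2ra and Nrp1 at a mean FPKM of at least 5. Tbx21, Ikzf5, Itgb8, Nt5e, Cd83, Ifng, Il21, Cd8a, Cd8b1 and Nkg7 were named after their values were seen, to complete counts. One result of the helper cell list is not reported here. The input library was not analysed here.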

Additional observations from a re-analysis of the deposited data

How the results depend on the processing

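Foxp3, Ikzf4, Il2ra, Nrp1, Lrrc32 and Capg kept their direction and call in every fit run. The fits were other scalings, no low-count filter, DESeq2, limma on FPKM, WT replicate 2 as the only WT library, a replicate block, each library left out and, chosen after seeing the data, replicate 1 of both genotypes left out. Ikzf2 passed in DESeq2 (0.23), ranged from 0.19 to 0.29 with 1 library left out, passing without CAT replicate 3, and turned to -0.01 after quantile normalisation. Izumo1r did not pass in limma without a filter (0.71) or after quantile normalisation (0.48). Gpr83 did not pass in limma (0.90 with a pseudocount of 1, 0.91 with 0.1, 0.90 without a filter), after quantile normalisation (0.75) or against WT replicate 2 alone (1.11), and ranged from 0.50 to 1.21 with 1 library left out. Swap70 lay around 0: -0.05 without scaling, -0.01 in the 3 limma fits, -0.09 after quantile normalisation and against WT replicate 2 alone, 0.00 with the replicate block and -0.08 to 0.06 with 1 library left out. The ratio to Foxp3 with 1 library left out ran from -0.08 to 0.38 for Izumo1r and from -0.06 to 0.47 for Gpr83.

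Over all genes 3369 rose and 3097 fell. The limma fits gave 2099, 2093 and 2077 that rose and 1834, 1815 and 1805 that fell, and WT replicate 2 alone gave 1954 and 1631. More genes fell than rose after quantile normalisation (1839 rose, 2203 fell) and without scaling factors (3040 rose, 3550 fell). The cause was not tested. With the replicate block 3349 genes rose and 3035 fell, 6 and 2 of them members. Same-numbered libraries deviated together with correlations of 0.0996, -0.0475 and 0.0987, so the number is not taken as a pairing. Of the lists, the 12 Foxp3 regulators and partners that rose were 7 after quantile normalisation and 5 against WT replicate 2 alone, the 4 other regulatory T cell genes that fell were 2 there, and the 3 helper cell genes that rose were 5 in DESeq2 and 6 without the filter. With 1 WT library the spread is taken from CAT alone. Regions at the 10 genes ranged with 1 library left out from 24 to 27 common, 20 to 25 lost and 1 to 3 gained. An overlap of 100 bp gave 2 gained. At a deposited −log10 q of at least 5, whose scores do not follow the peaks' widths, 0 were common and 5 lost. Keeping the widest peaks, chosen after seeing the data, gave 12 lost and 4 gained. TCF1 peaks numbered 11 without flanks and 17 with flanks of 10 kb. Depth of the ATAC libraries is not known from peak lists, so a missing peak is a peak not called, not closed chromatin, and 3 against 2 libraries cannot give p under 0.1.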
